A study of Rattus norvegicus with 21 samples.

Results

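Transcripts of 9 enzymes of mitochondrial fatty acid beta-oxidation were examined in RNA-seq data of renal cortex from the ZDSD experiment. They are Cpt2, Acadvl, Acadl, Acadm, Hadha, Hadhb, Acaa2, Eci1 and Decr1, and were chosen by their Ensembl identifiers as 9 of the 26404 genes in the files. All 9 passed the filter on low counts that kept 14664 genes for testing. Male Zucker Diabetic Sprague Dawley (ZDSD) rats, a model of obesity and type 2 diabetes with intact leptin signalling, formed 2 groups, and all rats were 37 weeks old. SHAM rats (n=9 libraries) had a sham laparotomy and did not receive DMT. DMT-treated rats (n=6) had the same sham operation and received dietary restriction plus medical therapy with fenofibrate (an agonist of PPARα), metformin, ramipril, rosuvastatin and liraglutide, and carry the label Medical bypass in the deposit. Sprague Dawley rats (SD, n=6) served as healthy controls. The diet and the 5 drugs were given together, so their parts cannot be told apart. SHAM and SD rats differ in strain, in diabetes and in the sham operation, which is described for the ZDSD rats, and these cannot be told apart either.

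Beta-oxidation shortens fatty acids by 2 carbons in each turn of a cycle in the mitochondrial matrix. Long chains enter as carnitine esters, and CPT2 on the inner membrane converts them back to acyl-CoA. An acyl-CoA dehydrogenase fitted to the length of the chain then introduces a double bond, hydration and a second oxidation follow, and a thiolase releases acetyl-CoA. On long chains the last 3 steps are carried out by the mitochondrial trifunctional protein, a complex of HADHA and HADHB, while ACAA2 is the thiolase for shorter chains, and ECI1 and DECR1 rearrange the double bonds of unsaturated fatty acids. The proximal tubule, which makes up much of the renal cortex, relies on this pathway for energy, and many of its genes are known targets of PPARα in rodents.

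Depth differed widely between SHAM libraries. Total counts were 20896370 to 27597901 in SD rats, 22308943 to 26812590 in DMT-treated rats and 14502127 to 23995113 in 7 SHAM rats, whereas SHAM rats 343 and 348 had 121511 and 101534 counts. No difference beyond sampling noise was detected between these libraries (p=0.195, chi-square test with 5208 degrees of freedom). Chi-square per degree of freedom was 1.02, and the value that 2 different rats would give at this depth was not tested. Whether the libraries come from 2 rats or are one library deposited under 2 rat numbers is therefore not settled here. Both libraries were left out, so that 19 rats (6 SD, 7 SHAM and 6 DMT) remained. In these rats 3 counts, the floor for a gene at 0, corresponded to 0.109 to 0.207 CPM (counts per 1000000 counts of the library), and the least covered value among the 9 transcripts was 989 counts (Cpt2 in a SHAM rat). SD and SHAM libraries are labelled as renewed analyses of earlier deposits and DMT libraries are not, so a difference between deposits cannot be told apart from an effect of DMT.

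Counts were scaled by the TMM method to CPM, and groups were compared in one quasi-likelihood model of edgeR for the 19 rats, with Benjamini-Hochberg adjustment over the 14664 genes. A gene was called where the adjusted p-value was under 0.05 and the groups differed by 1.3-fold or more. DMT-treated rats had more of all 9 transcripts than SHAM rats, from 1.57-fold for Acadm to 5.40-fold for Eci1, where 11.5% of all genes were called (4.12% higher and 7.36% lower). No DMT-treated rat overlapped with a SHAM rat for any of the 9, which held for 4.6% of all genes in this direction. SHAM rats had less of 4 transcripts than SD rats (Acadm, Acadl, Decr1 and Eci1), where 18.3% of all genes were called (10.3% higher and 7.95% lower). Relative to SD rats, DMT-treated rats had more of 8 transcripts, where 18.2% of all genes were called (8.01% higher and 10.2% lower), the exception being Acadm, whose means in these groups were 882 and 922 CPM. In bulk cortex, fewer cells of a type and less RNA per cell cannot be told apart.

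**Figure D1:**
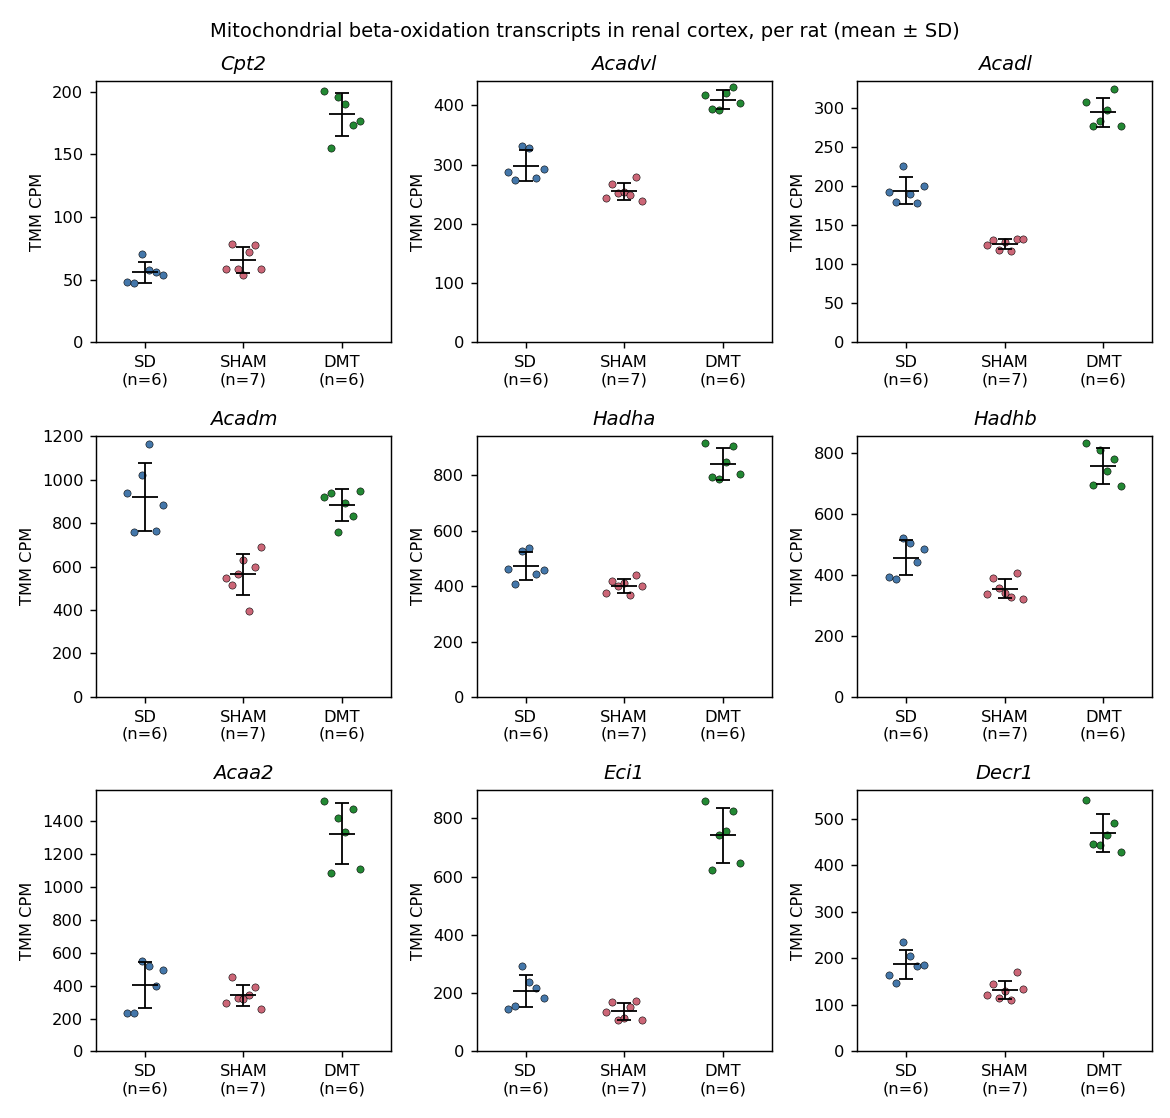
TMM-normalized CPM of each transcript (vertical axes, starting at 0) in each SD, SHAM and DMT-treated rat (points), with mean and standard deviation (bars). Every DMT-treated rat lies above every SHAM rat in all 9 panels, and for Acadm the DMT-treated rats (759 to 947 CPM) lie within the range of the SD rats (757 to 1165 CPM).

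Cpt2, which encodes the carnitine palmitoyltransferase of the inner membrane (ENSRNOG00000012443) is located at 131353542 to 131370821 of chromosome 5, reverse strand, in the rn5 assembly of the files. Its expression ranged from 47.8 to 70.9 CPM in SD rats (median 55.25), from 53.97 to 78.3 CPM in SHAM rats (median 59.0) and from 155 to 201 CPM in DMT-treated rats (median 183). DMT-treated rats thus formed a separate group, while SD and SHAM rats overlapped. Cpt2 was higher in DMT-treated than in SHAM rats by 2.78-fold (log2 fold-change 1.47, standard error 0.10, adjusted p=5.91e-09). Cpt2 alone of the 9 transcripts had a higher mean in SHAM than in SD rats, and the difference did not pass the test (log2 fold-change 0.23, standard error 0.10, adjusted p=0.0893). It passed the adjusted p-value, without reaching 1.3-fold, when SD rat 354 (0.31, adjusted p=0.023) or SHAM rat 321 (0.27, adjusted p=0.0475) was left out.

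The acyl-CoA dehydrogenases divide the substrates by chain length, with ACADVL acting on very long and long chains, ACADL on long and branched chains, and ACADM on medium chains. Acadvl (ENSRNOG00000018114, chromosome 10, 56364442 to 56369608, reverse strand) ranged from 274 to 332 CPM in SD rats (median 290.4), from 238 to 280.1 CPM in SHAM rats (median 252) and from 392 to 432 CPM in DMT-treated rats (median 410.3), above all SD and SHAM rats. Acadl (ENSRNOG00000012966, chromosome 9, 73434321 to 73472895, forward strand) ranged from 178 to 225 CPM in SD rats (median 191), from 118 to 132 CPM in SHAM rats (median 129) and from 277 to 324 CPM in DMT-treated rats (median 291). The 3 groups of Acadl did not overlap at any point, with SHAM rats lowest and DMT-treated rats highest. Acadm (ENSRNOG00000009845, chromosome 2, 278788485 to 278812656, reverse strand) ranged from 757 to 1165 CPM in SD rats (median 911), from 396 to 692 CPM in SHAM rats (median 567) and from 759 to 947 CPM in DMT-treated rats (median 907). All SHAM rats lay below all other rats for Acadm, and SD and DMT-treated rats shared one range.

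Relative to SHAM rats, DMT-treated rats had more Acadl by 2.33-fold (log2 fold-change 1.22, standard error 0.06, adjusted p=2.30e-11), Acadvl by 1.61-fold (0.68, standard error 0.05, adjusted p=3.27e-08) and Acadm by 1.57-fold (0.65, standard error 0.12, adjusted p=5.56e-04). In SHAM relative to SD rats, Acadm fell by 0.71 (standard error 0.12, adjusted p=1.69e-04) and Acadl by 0.62 (standard error 0.06, adjusted p=3.59e-07) on the log2 scale. Acadvl differed by -0.23 (standard error 0.05, adjusted p=0.0038), which is under 1.3-fold. Both comparisons use the same 7 SHAM rats. Relative to SD, DMT-treated rats had log2 fold-changes of 0.60 for Acadl (adjusted p=4.52e-07) and 0.46 for Acadvl (adjusted p=7.34e-06). The DMT vs SD difference of Acadm was -0.06 (95% interval -0.31 to 0.19, adjusted p=0.716), and its sign turned with normalization by library totals (0.02) and without SD rat 355 (0.01). The test against a fold-change of 1.3 itself (glmTreat of edgeR) did not call Acadm in DMT vs SHAM (adjusted p=0.0969).

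The promoters of Acadvl and Acadm are shown because these dehydrogenases had the smallest changes in DMT vs SHAM and Acadvl alone of the 6 promoters found carries a close match to the element bound by PPARα with RXR. The sequences are the 250 bases before the start site in the RefSeq annotation of the GRCr8 assembly, a later build than that of the files, at chr10:55236706-55236955 and chr2:245542865-245543114, both on the reverse strand and printed 5′ to 3′. Capitals mark AGGTCA on either strand and any match with at most 1 mismatch to the direct repeat AGGTCANAGGTCA.
Acadvl: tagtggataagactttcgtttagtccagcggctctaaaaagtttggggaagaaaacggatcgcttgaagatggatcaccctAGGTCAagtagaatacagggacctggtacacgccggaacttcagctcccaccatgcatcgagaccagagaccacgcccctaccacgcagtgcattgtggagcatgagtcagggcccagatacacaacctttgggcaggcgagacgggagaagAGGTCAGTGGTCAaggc
Acadm: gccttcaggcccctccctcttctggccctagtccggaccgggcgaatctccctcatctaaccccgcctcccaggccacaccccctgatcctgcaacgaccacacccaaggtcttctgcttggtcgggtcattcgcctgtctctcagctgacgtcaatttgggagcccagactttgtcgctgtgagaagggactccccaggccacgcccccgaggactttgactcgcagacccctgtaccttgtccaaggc
The match in Acadvl, AGGTCAGTGGTCA, begins 17 bases before the start site. A match with at most 1 mismatch on either strand was found in 0.439% of 33469 rat promoters of 300 bases (250 before to 50 after the start), and an exact match in 0.0538%. The promoter of Acadm held neither the repeat, with up to 3 mismatches, nor AGGTCA.

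Both subunits of the trifunctional protein were higher in DMT-treated than in SHAM and SD rats. Hadha (ENSRNOG00000024629, chromosome 6, 37400511 to 37439591, forward strand) encodes the subunit for hydration and the second oxidation, and ranged from 406 to 537.5 CPM in SD rats (median 461), from 366.5 to 441.5 CPM in SHAM rats (median 400.5) and from 787 to 917 CPM in DMT-treated rats (median 826). Hadhb (ENSRNOG00000010800, chromosome 6, 37366083 to 37393666, reverse strand) encodes the thiolase subunit, and ranged from 387 to 523.5 CPM in SD rats (median 465.9), from 323 to 408 CPM in SHAM rats (median 343) and from 691 to 833 CPM in DMT-treated rats (median 763). For both subunits all DMT-treated rats were above all other rats, while SD and SHAM rats overlapped. Hadha was higher in DMT-treated than in SHAM rats by 2.10-fold (log2 fold-change 1.07, standard error 0.07, adjusted p=1.77e-09) and Hadhb by 2.14-fold (1.10, standard error 0.08, adjusted p=1.02e-08). In SHAM vs SD the differences were -0.23 for Hadha (standard error 0.07, adjusted p=0.013) and -0.36 for Hadhb (standard error 0.08, adjusted p=0.002), both under 1.3-fold. In DMT vs SD they were 0.83 (adjusted p=6.66e-08) and 0.73 (adjusted p=2.39e-06).

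Hadha and Hadhb lie head to head with no gene between them, and the stretch that their promoters share is shown for this reason. In GRCr8, 300 bases lie between the RefSeq start sites, which are at 31907801 for Hadha and 31907500 for Hadhb. The promoter windows share the 200 bases at chr6:31907551-31907750. They are printed on the forward strand, that of Hadha, and capitals mark GGGCGG (the GC box bound by SP1) on either strand.
Hadha and Hadhb: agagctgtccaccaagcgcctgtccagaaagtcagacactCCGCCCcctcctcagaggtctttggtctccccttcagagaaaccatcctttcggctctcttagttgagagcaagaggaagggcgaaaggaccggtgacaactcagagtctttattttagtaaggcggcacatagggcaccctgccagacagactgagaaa
Between the annotated ends of both genes lie 6844 bases in the rn5 annotation of the files and 243 in GRCr8, and Hadhb spans 27584 bases in rn5 and 34154 bases in GRCr8. GGGCGG was present in 33.1% of all rat promoters and in 5 of the 6 promoters found for the 9 genes, and CCAAT in 37.5% and in 1 (Hadha).

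Acaa2 (ENSRNOG00000013766, chromosome 18, 69873084 to 69901836, forward strand), the thiolase for short and medium chains, ranged from 233 to 547 CPM in SD rats (median 445.5), from 257 to 454 CPM in SHAM rats (median 327) and from 1083 to 1526 CPM in DMT-treated rats (median 1377). SD rats 352 and 353, at 233 CPM each, were apart from the other 4 SD rats, which had at least 397 CPM. Even the lowest DMT-treated rat had more than any SD or SHAM rat. Acaa2 was higher in DMT-treated than in SHAM rats by 3.89-fold (1.96 on the log2 scale, standard error 0.19, adjusted p=5.33e-07), and the log2 fold-change in DMT vs SD was 1.72 (standard error 0.20, adjusted p=3.45e-06). The SHAM vs SD difference was -0.24 (95% interval -0.64 to 0.15, adjusted p=0.325), and lay between -0.36 and -0.13 when 1 rat was left out. Acaa2 had the widest spread within groups, with a biological coefficient of variation of 0.239, compared with 0.081 for Acadvl and a median of 0.114 over all genes tested.

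Both auxiliary enzymes for unsaturated chains were lower in SHAM than in SD rats and were among the 3 transcripts with the largest changes in DMT vs SHAM. Eci1 (ENSRNOG00000008843, chromosome 10, 13614548 to 13627899, forward strand), the delta3,delta2-enoyl-CoA isomerase, ranged from 147 to 293 CPM in SD rats (median 201), from 107.5 to 172 CPM in SHAM rats (median 135) and from 621.5 to 859.8 CPM in DMT-treated rats (median 749). Decr1 (ENSRNOG00000008236, chromosome 5, 34253236 to 34280749, reverse strand), the 2,4-dienoyl-CoA reductase, ranged from 147 to 236 CPM in SD rats (median 185), from 111 to 169.5 CPM in SHAM rats (median 129) and from 428 to 540.0 CPM in DMT-treated rats (median 455). DMT-treated rats were again apart from all others, and SD and SHAM rats overlapped for both. Relative to SHAM rats, DMT-treated rats had more Eci1 by 5.40-fold (log2 fold-change 2.43, standard error 0.16, adjusted p=2.16e-09) and Decr1 by 3.55-fold (1.83, standard error 0.11, adjusted p=5.21e-10). In SHAM relative to SD rats, Eci1 fell by 0.59 (standard error 0.15, adjusted p=0.00672) and Decr1 by 0.50 (standard error 0.10, adjusted p=0.00141) on the log2 scale, and neither passed the test against a fold-change of 1.3 itself (adjusted p=0.269 and 0.341). In DMT vs SD the log2 fold-changes were 1.85 for Eci1 (adjusted p=1.09e-07) and 1.33 for Decr1 (adjusted p=5.29e-08).

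The promoter of Eci1 is shown because this transcript had the largest change in DMT vs SHAM of the 9. It is the 250 bases before the RefSeq start site at chr10:13961000-13961249 of GRCr8, on the forward strand, and capitals mark AGGTCA on either strand, here as its complement.
Eci1: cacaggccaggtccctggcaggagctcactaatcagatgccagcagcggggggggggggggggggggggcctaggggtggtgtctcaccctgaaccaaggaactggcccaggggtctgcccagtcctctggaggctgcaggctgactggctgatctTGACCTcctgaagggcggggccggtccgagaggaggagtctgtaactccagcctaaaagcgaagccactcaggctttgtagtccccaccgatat
AGGTCA occurred in 3 of the 6 promoters (Acadvl, Hadhb and Eci1) and in 16.2% of all rat promoters, and the repeat AGGTCANAGGTCA with at most 3 mismatches in 3 (Acadvl, Hadha and Hadhb) and in 24.9%. The matches of Hadha and Hadhb are one stretch of 13 bases, read on opposite strands of the sequence that both promoters share. These matches are letters in a window and were not tested for binding. Acadl, Acaa2 and Decr1 had no entry in the promoter table.

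Among all genes ordered by log2 fold-change in DMT vs SHAM, Eci1 was gene 25, Acaa2 gene 40 and Decr1 gene 48 of 14664, and the lowest of the 9, Acadm, was gene 347. The median log2 fold-change of the 9 transcripts was 1.22, and that of all genes tested was -0.004. In SHAM vs SD the median of the 9 was -0.36. Here 2 of 9, Acadm and Acadl, were lower in SHAM rats without overlap (4.57% of all genes), and with the adjusted p-value alone 7 of 9 were lower, compared with 17.9% of all genes. In DMT vs SD the median of the 9 was 0.83, and the 8 transcripts called were each higher without overlap (7.92% of all genes).

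**Figure D2:**
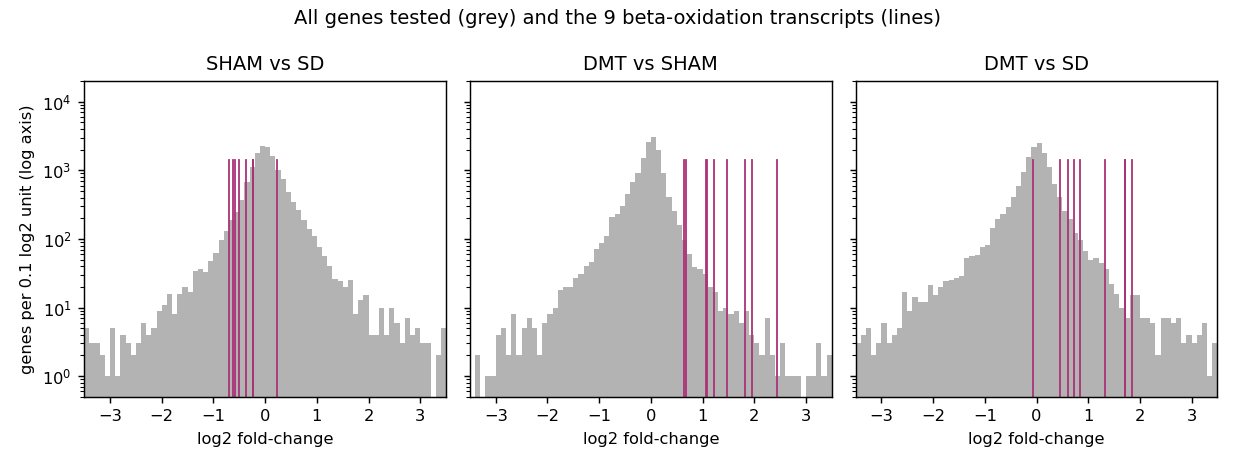
Distribution of log2 fold-changes of the 14664 genes tested (grey, genes per bin of 0.1 on a log axis) with the 9 transcripts as vertical lines, for SHAM vs SD, DMT vs SHAM and DMT vs SD. All 9 lines are in the upper tail for DMT vs SHAM (0.65 to 2.43), and 31, 14 and 61 genes lie beyond the ends of the axes.

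With library totals in place of TMM the median log2 fold-change of all genes in SHAM vs SD shifted by 0.13, and the share of called genes that were higher went from 56.5% to 76.9% (1515 higher and 1166 lower with TMM, 2484 and 745 with totals). Under this scaling 3 of the 9 transcripts were called lower, since Decr1 came to -0.37, and Acadvl (-0.10, adjusted p=0.0954) and Hadha (-0.10, adjusted p=0.127) no longer passed the adjusted p-value. Cpt2, at 0.36 (adjusted p=0.00854), then passed the adjusted p-value in the higher direction without reaching 1.3-fold. In DMT vs SD the called genes that were higher went from 44.1% to 57.5%, and in DMT vs SHAM from 35.9% to 27.5% (483 higher and 1276 lower with totals). In DMT vs SHAM all 9 remained called under library totals, with all 9 SHAM libraries, with the shallow libraries summed as 1 sample and with the DESeq2 Wald test. With all 9 SHAM libraries, counted as 9 rats, the same numbers of transcripts as without rats 343 and 348 were called in SHAM vs SD (4) and DMT vs SD (8), and the largest change was that of Acaa2, from 1.959 to 1.898 in DMT vs SHAM.

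**Figure D3:**
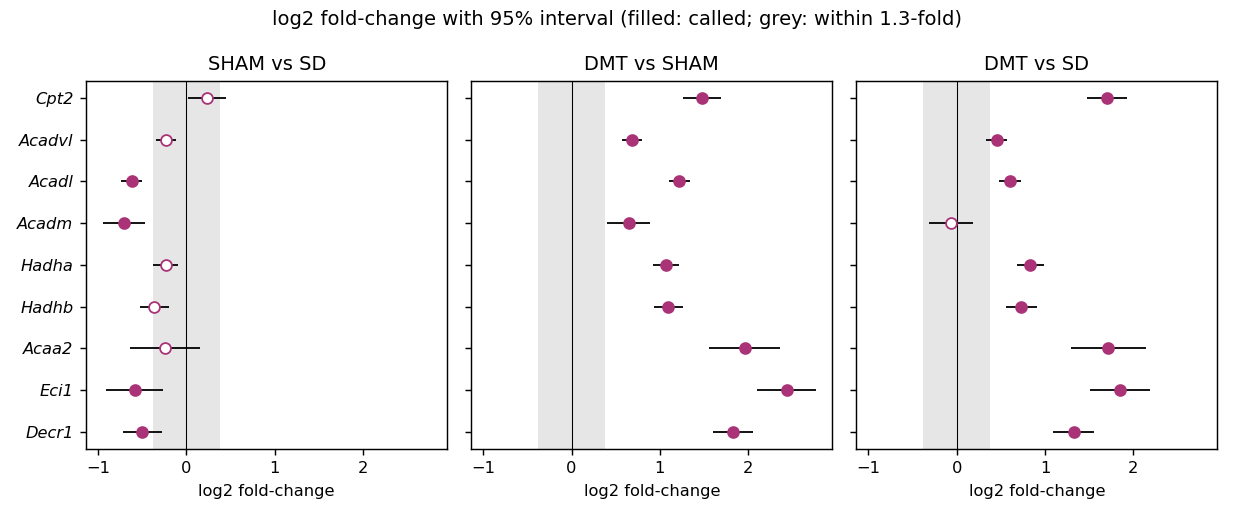
Change of each transcript on the log2 scale (points, filled where called) with its 95% interval (lines) in the 3 comparisons, with the range within 1.3-fold in grey. All 9 points are filled for DMT vs SHAM, 4 on the lower side for SHAM vs SD, and 8 for DMT vs SD, where Acadm lies at -0.06.

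Levels between genes were compared per length, as TPM, in which counts are divided by the exonic length in the files and scaled to 1000000 per rat. Acadm was the most abundant of the 9 in SD rats, at 834 ± 107 TPM (SD of n=6), followed by Acaa2 at 439 ± 138 and Hadhb at 421 ± 35.8, and Cpt2 was the least abundant at 43.1 ± 5.43. In SD rats Acadm and Acaa2 did not overlap, whereas the neighbours from Acaa2 down to Acadl (Hadhb, Eci1, Hadha, Decr1, Acadvl) overlapped one by one. In SHAM rats Acadm was at 567.5 ± 75.3 TPM (n=7), overlapped with Acaa2 at 418 ± 78.7, and Cpt2 was again lowest at 56.5 ± 9.63. In DMT-treated rats the order changed at the top, with Acaa2 at 1559 ± 220.3 and Eci1 at 1446 ± 176 TPM (n=6), both above Acadm at 856 ± 61.5. Acaa2 exceeded Eci1 in 6 of 6 DMT-treated rats although their ranges overlapped, and neither overlapped with Acadm. By mean TPM among the 14664 genes, Acaa2 went from gene 379 in SHAM rats to gene 47 in DMT-treated rats, and Eci1 from gene 634 to gene 53. In SD rats they were genes 362 and 450. Counts of the 9 transcripts together made up 0.303% ± 0.035 of all counts in SD rats, 0.247% ± 0.0136 in SHAM rats and 0.592% ± 0.042 in DMT-treated rats.

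Ratios of counts within each rat, which do not depend on scaling between rats, were tested for 5 pairs of related enzymes in 3 comparisons by two-sided exact permutation of rats, with adjustment over the 15 tests. The smallest p-value possible is 0.000583 where 7 SHAM rats are compared with 6 rats (1716 splits) and 0.00216 for 6 against 6 (924 splits). Acaa2 relative to Hadhb, the thiolase of the trifunctional protein, was 0.954 ± 0.120 in SHAM rats (n=7) and 1.74 ± 0.13 in DMT-treated rats (n=6). The groups did not overlap, and the log2 difference was 0.87 (95% interval 0.69 to 1.05, exact permutation p=0.000583, adjusted 0.005). Eci1 relative to Decr1 was 1.05 ± 0.195 in SHAM and 1.58 ± 0.109 in DMT-treated rats, again without overlap, with a log2 difference of 0.61 (95% interval 0.36 to 0.86, exact permutation p=0.00117, adjusted 0.005). Thus within each pair the members differed between the groups by unequal amounts. In SD rats these ratios were 0.860 ± 0.212 and 1.09 ± 0.132, and the SHAM vs SD differences were 0.18 (exact permutation, adjusted p=0.42) and -0.07 (adjusted p=0.623). When 1 rat was left out they ranged from 0.0797 to 0.245 and from -0.143 to -0.0121. In DMT vs SD the log2 differences were 1.05 for Acaa2/Hadhb and 0.54 for Eci1/Decr1, both without overlap (exact permutation, adjusted p=0.005 each).

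The dehydrogenases split in a different way. Acadl relative to Acadm was 0.214 ± 0.0276 in SD, 0.229 ± 0.0362 in SHAM and 0.336 ± 0.040 in DMT-treated rats. This ratio was higher in DMT than in SHAM rats by 0.56 (95% interval 0.31 to 0.80, exact permutation p=0.00233, adjusted 0.005), with SHAM rat 333 (0.297) reaching into the range of the DMT-treated rats (0.292 to 0.390), and SHAM vs SD differed by 0.09 (95% interval -0.15 to 0.35, adjusted p=0.565, and 0.0165 to 0.135 when 1 rat was left out). In DMT vs SD, Acadl relative to Acadm differed by 0.65 without overlap (exact permutation, adjusted p=0.005). Acadvl relative to Acadm was 0.328 ± 0.0314 in SD, 0.465 ± 0.0908 in SHAM and 0.467 ± 0.0433 in DMT-treated rats. Here the difference was between SHAM and SD (0.48, 95% interval 0.22 to 0.76, exact permutation p=0.0035, adjusted 0.00656) and between DMT and SD (0.51, adjusted p=0.005), while DMT vs SHAM gave 0.02 (95% interval -0.25 to 0.29, adjusted p=0.844). SHAM rat 340 (0.344) lay within the range of the SD rats (0.282 to 0.3625), whereas DMT-treated and SD rats did not overlap.

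For the trifunctional protein subunits no difference in ratio was detectable between DMT-treated and SHAM rats. Hadhb relative to Hadha was 0.968 ± 0.0704 in SD, 0.884 ± 0.047 in SHAM and 0.903 ± 0.0651 in DMT-treated rats. The DMT vs SHAM difference was 0.03 on the log2 scale (95% interval -0.07 to 0.14, exact permutation, adjusted p=0.623). SHAM vs SD differed by -0.13 (95% interval -0.24 to -0.02, exact permutation p=0.0297, adjusted 0.0495), a call that was lost in 10 of the 13 fits that left out 1 SD or SHAM rat and kept in 3 (without SD rat 352, SHAM rat 315 or SHAM rat 334). DMT vs SD was -0.10 (95% interval -0.22 to 0.03, adjusted p=0.182), and reached -0.14 (adjusted p=0.0397) without DMT rat 328.

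**Figure D4:**
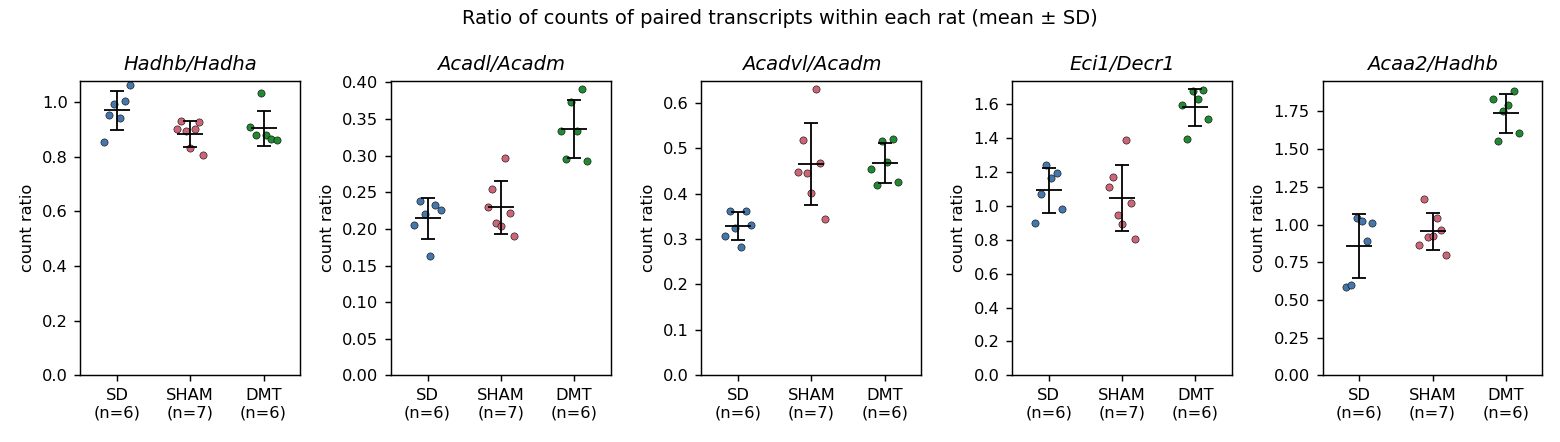
Ratio of counts of 2 transcripts within each rat (points) with mean and standard deviation (bars), for 5 pairs of related enzymes, with axes starting at 0. Acaa2/Hadhb and Eci1/Decr1 are higher in all DMT-treated rats than in all SHAM rats, and DMT rat 328 has the highest Hadhb/Hadha of its group (1.03).

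Some rats were among the highest or the lowest of their group for most transcripts, and others were at both ends. Among SD rats, rat 354 was among the highest 2 rats for 9 of 9 transcripts and rat 355 for 8 of 9, while rat 353 was among the lowest 2 for 9 of 9. Among SHAM rats, rat 334 was among the highest 2 for 8 of 9, and among DMT-treated rats, rat 316 for 7 of 9. At the lower end, SHAM rat 333 was among the lowest 2 for 5 of 9 transcripts and DMT rat 325 for 7 of 9. These ranks are on the TMM scale. Scaled to the library total, rat 333 was among the lowest 2 only for Acadm (445.1 CPM) and Decr1 (124.7 CPM). Its Cpt2 (81.64 CPM) was then the highest of the SHAM rats kept. SHAM rat 340 was among the highest 2 for 2 transcripts and among the lowest 2 for 4. These numbers were 6 and 2 for DMT rat 341, 2 and 4 for DMT rat 328, and 1 and 5 for DMT rat 347. None of 27 correlations of a transcript with the library total within a group passed the adjustment (lowest adjusted p=0.941, exact permutation). In SD rats (n=6) every r was positive, the largest being 0.766 for Acadm, 0.679 for Acadvl and 0.638 for Hadha. SD rats 354 and 355 had the deepest SD libraries (25033047 and 27597901 counts). In SHAM and DMT-treated rats r had both signs.

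Within groups, the transcripts were correlated pair by pair over the rats (log2 of TMM CPM plus 0.5, 36 pairs in each of 3 groups, 108 correlations, exact permutation with adjustment over all). In SD rats all 36 pairs were positive, with a median Pearson r of 0.771 (0.486 to 0.984, n=6) and a median Spearman rho of 0.771. SHAM rats had a median r of 0.617 (-0.536 to 0.960, n=7) with 32 of 36 positive and a median rho of 0.429, and DMT-treated rats had a median r of 0.699 (-0.603 to 0.971, n=6) with 31 of 36 positive and a median rho of 0.657. Over all pairs of the 14664 genes the median r was -0.001 in each group, and the share of pairs at or above the median of the 9 transcripts was 5.45% in SD, 14.1% in SHAM and 7.41% in DMT-treated rats. All pairs share the libraries and their scaling, and few rats stand behind each r. How far r depends on the TMM scaling was not tested. Without the 2 rats farthest from the median of the first gene, the medians were 0.533, 0.319 and 0.494.

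After adjustment, 3 pairs passed in SD rats, 1 in SHAM rats and 0 in DMT-treated rats, where 9 pairs had an unadjusted exact permutation p-value under 0.05. The pairs in SD rats were Hadhb with Acaa2 (r=0.984), Hadhb with Decr1 (r=0.942) and Acaa2 with Decr1 (r=0.902), each with rho=1, exact permutation p=0.00139, the smallest possible, and adjusted p=0.0482. Their r without the 2 farthest rats was 0.992, 0.833 and 0.763, and the adjusted p of rho was 0.06. The pair in SHAM rats was Acadvl with Hadhb (r=0.960, rho=0.929, exact permutation p=0.00179, adjusted p=0.0482), with r=0.736 without the 2 farthest rats and an adjusted p of rho of 0.104. Hadha and Hadhb, the subunits of one complex, had r=0.816 in SD, 0.790 in SHAM and 0.564 in DMT-treated rats, with rho=0.771, 0.714 and 0.371, and r=0.502, 0.534 and -0.102 without the 2 farthest rats (exact permutation p=0.0625, 0.0373 and 0.231, adjusted p=0.162, 0.125 and 0.336).

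Acadm stood apart from the other 8 within the ZDSD groups. Its median r with them was 0.604 in SD rats (8 of 8 positive), -0.0075 in SHAM rats (4 of 8 positive) and -0.308 in DMT-treated rats (3 of 8 positive), and with all rats every negative pair in the 3 groups included Acadm. Without the 2 farthest rats this no longer held, as 26 of 36 pairs were positive in SHAM and 25 of 36 in DMT-treated rats, which leaves more negative pairs than the 8 of Acadm. None of its pairs passed the adjustment, the most negative being that with Hadhb in DMT-treated rats (r=-0.603, rho=-0.657, exact permutation p=0.20, adjusted p=0.306). Whether this differed between the groups was not tested. Centred within groups and taken over the 19 rats, Acadm had r=0.207 with the mean of the other 8. The next lowest was Acadl at 0.660, and the highest were Hadhb at 0.918 and Decr1 at 0.908.

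**Figure D5:**
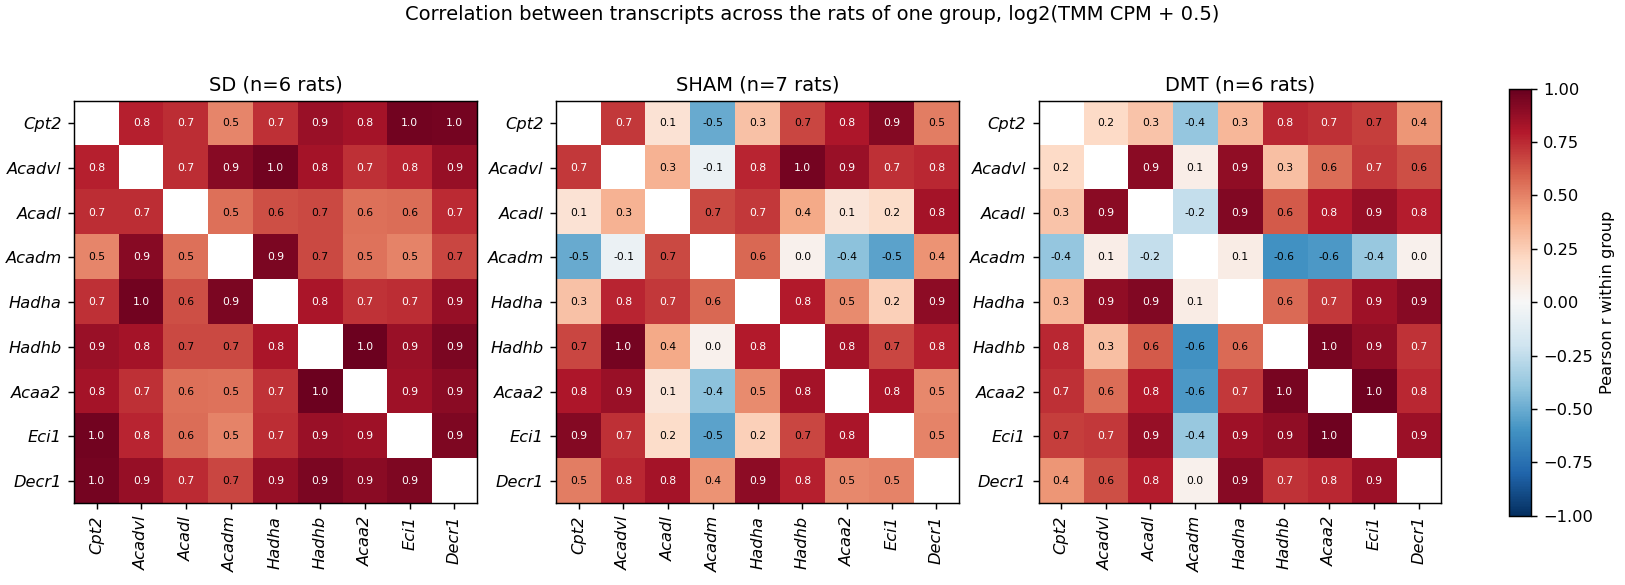
Pearson r between each pair of transcripts over the SD, SHAM and DMT-treated rats (colour, red positive and blue negative, with the value in each cell). All cells are positive in SD rats, and the negative cells in SHAM and DMT-treated rats are in the row and column of Acadm.

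Of all other genes, 2 are named as most alike in pattern, by Pearson r with the mean of the 9 profiles, centred within groups, over the 19 rats. ENSRNOG00000008755 (rn5 chromosome 10, 103537778 to 103562620, forward strand) had r=0.897, and mean levels of 1095 CPM in SD, 837 in SHAM and 2123 in DMT-treated rats, with log2 fold-changes of 1.34 in DMT vs SHAM (adjusted p=1.02e-08) and -0.39 in SHAM vs SD (adjusted p=0.00521). ENSRNOG00000038166 (rn5 chromosome 6, 117514754 to 117546551, reverse strand) had r=0.893, and 159.9 CPM in SD, 129 in SHAM and 148 in DMT-treated rats. It followed the mean of the 9 profiles from rat to rat but differed by 0.20 in DMT vs SHAM (adjusted p=0.0304), under 1.3-fold.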

How the data were processed

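Renal cortical RNA-seq of 21 rats was used. The submitters' processing notes name Trim Galore for trimming, STAR for mapping and the rn5 assembly, and per the file headers fragments on exons were counted with featureCounts (1.6.4). The deposited values are counts per Ensembl gene and rat, without normalization. The 37 mitochondrially encoded genes had 0 counts in every rat, so transcripts of the mitochondrial genome were not assessed.

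SHAM libraries under 1000000 counts were left out. Genes were filtered with filterByExpr (minimum count 10, minimum total 15), normalized by TMM and tested with the quasi-likelihood test of edgeR (4.0.16, R 4.3.3), with all 3 groups in one fit. Standard errors come from the F statistic. Correlations and ratios were tested by exact permutation written with numpy 2.4.6, and ranks for rho came from scipy 1.17.1. The fits were tested on simulated data. The labels number rats but do not state separate litters or preparation days, so p-values cover the spread between these rats. Poisson intervals and floors cover counting error only.

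The members and lists were chosen with earlier results of these data known. Every member is named, and of other genes the 2 most alike in pattern. Identifiers were not paired with symbols: 0 of 26404 matched the RefSeq gene table, so other genes of the pathway and markers of renal cell types were not analysed here, and the tissue label was not checked. The symbols of the 9 genes were given with their identifiers, and all 9 are on the same chromosome in RefSeq GRCr8, 8 of them with a span within 10%. No member shares exonic bases with another annotated gene. Promoter sequences are from RefSeq (GRCr8), where 6 of the 9 genes matched. Alternatives were other tests (DESeq2 1.42.0), normalizations, filters, fold-change thresholds, uses of the shallow SHAM libraries, and leaving out each rat.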

Additional observations from a re-analysis of the deposited data

Results flagged for a closer look

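Of 42 sets of values of one group (27 of CPM and 15 of ratios), each tested for a rat far from the others of its group, 1 was found, where about 2.1 would be by chance at 1 in 20. The Hadhb/Hadha count ratio of DMT rat 328 was 1.031, while the other 5 DMT-treated rats lay between 0.860 and 0.909. The gap to the nearest rat was 0.713 of the range of the group.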

How the results depend on the processing

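All 9 transcripts were called in DMT vs SHAM under every alternative except the test against a fold-change of 1.3 itself (8, without Acadm), and 8 in DMT vs SD under every alternative except that test, where Acadvl was lost (adjusted p=0.244). In SHAM vs SD the number called was 4, but 2 with that test, 7 with no fold-change threshold, 3 with library totals, and 4 to 5 when 1 rat was left out. It was 5 without SD rat 352 or 353 or SHAM rat 315 or 334, where Hadhb came to between -0.41 and -0.39 and passed 1.3-fold.

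Genes called numbered 1684 in DMT vs SHAM, then 2681 in the comparison of SHAM with SD and 2663 in that of DMT with SD. They were 461, 810 and 1091 with the stricter test and 2975, 5131 and 4682 with no fold-change threshold, both by construction. Without 1 rat they ranged over 1398 to 1958, 2198 to 3070 and 2437 to 2823. In DMT vs SHAM, 604 were higher and 1080 lower, and with the test against 1.3-fold 211 and 250.

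Signs turned for the Acadm difference in DMT vs SD (0.019 with library totals, 0.013 without SD rat 355, and -0.110 to 0.013 without 1 rat), for Hadhb/Hadha in DMT vs SHAM (-0.00867 without DMT rat 328, and 0.0436 at most without 1 rat) and for Acadvl/Acadm in DMT vs SHAM (-0.0437 to 0.102 without 1 rat). Hadhb/Hadha ranged from -0.166 to -0.103 in SHAM vs SD and from -0.139 to -0.0729 in DMT vs SD without 1 rat. The cause was not tested. No other ratio changed sign or call. The median r within groups ranged over 0.649 to 0.847 (SD), 0.496 to 0.712 (SHAM) and 0.541 to 0.803 (DMT) without 1 rat, and was 0.439 in SHAM with the shallow libraries as 1 more sample. No paired analysis was possible because each rat number in the labels belongs to 1 rat of 1 group. In the 19 libraries each of these transcripts had at least 989 counts. How counting error and the spread between rats each bear on the precision was not tested.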

Other observations

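The SHAM libraries of rats 343 and 348, left out above, hold 7 to 142 counts of each transcript when summed. Their CPM, scaled to the library total with exact 95% Poisson intervals (counting error only), were set beside those of the other 7 SHAM rats on the same scale. Acadl had 50 counts, or 224 CPM (166 to 295.5), compared with 123 to 134 CPM in the 7 SHAM rats, 171 to 209 CPM in SD rats and at least 276 CPM in DMT-treated rats. Its interval did not reach the range of the 7 SHAM rats, while those of the other 8 transcripts did. Cpt2 had 7 counts, or 31.4 CPM (12.6 to 64.7), and Eci1 had 33 counts, or 148 CPM (102 to 208), below all DMT-treated rats (at least 623 CPM).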
